A study of Mus musculus with 75 samples.

Results

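The Cyp2 genes encode the cytochrome P450 family that carries much of the liver's oxidation of drugs, steroids and fatty acids. Members were taken by name and biotype: every protein-coding row whose symbol is Cyp2 followed by a letter and a number, which gave 48 of the 55536 genes in the table. The symbol Cyp2c44 is not a row of that table, but rows were matched by symbol only, so its gene may stand under another symbol. The measurements are gene counts from bulk RNA sequencing of 75 liver libraries of male C57Bl/6 mice. The dams had drunk tributyltin (TBT), an organotin compound, until weaning, or vehicle; the daily dose was 0.5 mg/kg and the water held 3.07 µM. Every mouse shares the strain, the sex label and the maternal route, and the sources used here name no transgene. At 3 weeks there were 7 vehicle livers (8 libraries) and 8 TBT livers. At 5 months there were 8 vehicle livers, and the TBT livers were labelled low-risk (16) or high-risk (10). At 10 months there were 6 vehicle livers and 5 low-risk TBT livers, then 6 libraries of uninvolved liver (the tissue outside a tumor) counted as 5 samples, and 7 tumors. A single further 10-month library carries a vehicle label and a tumor label, and it entered no test. How the risk labels were assigned is not given in the sources used here, so high-risk and low-risk are used only as names. Whole liver was sequenced, so fewer cells of a type and less RNA per cell cannot be told apart.

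Cytochrome P450 enzymes of the Cyp2 family sit in the endoplasmic reticulum, bind heme, and take electrons from the reductase Por and from cytochrome b5. In the lobule, Cyp2e1 and several Cyp2c genes are read mainly in hepatocytes near the central vein, while Cyp2f2 marks those near the portal tract. Many mouse members are sex-biased in adults: Cyp2d9 is a male-biased steroid hydroxylase, while Cyp2b9, Cyp2b13, Cyp2a4, Cyp2c40 and Cyp2c69 are female-biased. Cyp2b10, Cyp2c29 and Cyp2c55 are known targets of the receptors CAR (Nr1i3) and PXR (Nr1i2).

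Most members lie in tandem clusters, outside which are Cyp2e1, Cyp2r1, Cyp2u1 and Cyp2w1. All 15 Cyp2c genes are at chr19:39007019-44029208, all 8 Cyp2d genes at chr15:82370527-82794294 and all 8 Cyp2j genes at chr4:96027534-96664154 (GRCm38, the sequence of mm10). Cyp2c23 (chr19:44005022-44029208) stands apart from the other Cyp2c genes, which end at chr19:40187333. Chromosome 7 holds 15 members, among them the 4 Cyp2a genes (chr7:26307169-27037375), the 5 Cyp2b genes (chr7:25897620-26772630) and Cyp2e1 (chr7:140763739-140774987). Neighbours are so alike that short reads can be shared: of the 50-base words in the exons of Cyp2c40, 60.3% also occur in another gene, and the share was 54.3% for Cyp2c69, 52.8% for Cyp2c67, 43.3% for Cyp2c68, 38.0% for Cyp2a4, 37.0% for Cyp2a5, 37.2% for Cyp2d11, 35.8% for Cyp2d10, 30.1% for Cyp2c37, 27.3% for Cyp2b13 and 25.7% for Cyp2c54. The share was lower but not small for Cyp2d9 (21.8%), Cyp2a22 (20.2%), Cyp2a12 (20.1%), Cyp2c50 (18.3%) and Cyp2d40 (14.5%). Values of the first 11 members, and to a lesser degree of these, are uncertain to the extent that the counting split such reads.

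Promoters of 3 paralog pairs are shown because the pairs moved in the comparisons below and because their sequences show how close the copies are. Each is the 250 bases before the gene's start in RefSeq (GRCm38.p6, plus strand, printed 5′ to 3′). The window of Cyp2a4 is chr7:26306942-26307191 and that of Cyp2a5 is chr7:26835089-26835338. Capitals mark the bases that differ or have no partner in the other window.
Cyp2a4: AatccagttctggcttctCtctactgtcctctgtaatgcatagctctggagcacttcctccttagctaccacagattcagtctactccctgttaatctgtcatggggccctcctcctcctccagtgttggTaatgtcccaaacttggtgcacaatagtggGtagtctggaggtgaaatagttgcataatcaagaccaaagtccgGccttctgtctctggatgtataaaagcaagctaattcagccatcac
Cyp2a5: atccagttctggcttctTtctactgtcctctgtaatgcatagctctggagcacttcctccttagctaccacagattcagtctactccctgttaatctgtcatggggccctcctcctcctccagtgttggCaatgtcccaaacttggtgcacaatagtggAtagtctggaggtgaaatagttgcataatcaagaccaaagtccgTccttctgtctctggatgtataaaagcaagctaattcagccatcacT
Counted from 1 at the 5′ end of the Cyp2a4 window, the substitutions were C19T, T131C, G161A and G205T, and the identity was 97.6%. The capitals at the start of Cyp2a4 and at the end of Cyp2a5 have no partner because the windows are offset. The identity counts these 2 positions as gaps. The next pair is Cyp2b9 (chr7:26173159-26173408) and Cyp2b13 (chr7:26061245-26061494), again with the differing bases in capitals.
Cyp2b9: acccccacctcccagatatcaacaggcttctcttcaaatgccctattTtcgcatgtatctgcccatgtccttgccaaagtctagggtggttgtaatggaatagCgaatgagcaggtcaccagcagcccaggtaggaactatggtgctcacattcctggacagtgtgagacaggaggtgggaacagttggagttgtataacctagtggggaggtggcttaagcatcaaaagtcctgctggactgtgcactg
Cyp2b13: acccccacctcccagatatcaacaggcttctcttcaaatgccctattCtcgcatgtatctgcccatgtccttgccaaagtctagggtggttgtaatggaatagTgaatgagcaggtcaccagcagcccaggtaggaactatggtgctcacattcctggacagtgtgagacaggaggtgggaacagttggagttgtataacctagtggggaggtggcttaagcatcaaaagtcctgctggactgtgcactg
This pair was 99.2% identical and differed at T48C and C104T. In the last pair, Cyp2c37 (chr19:39992174-39992423) and Cyp2c50 (chr19:40089429-40089678), capitals mark the letters CAAAGT, a core of the site of the hepatocyte factor HNF4.
Cyp2c37: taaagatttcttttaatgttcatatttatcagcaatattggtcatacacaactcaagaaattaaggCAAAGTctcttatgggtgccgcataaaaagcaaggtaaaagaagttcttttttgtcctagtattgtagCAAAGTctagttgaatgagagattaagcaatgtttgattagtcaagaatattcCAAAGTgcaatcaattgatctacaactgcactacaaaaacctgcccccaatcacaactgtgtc
Cyp2c50: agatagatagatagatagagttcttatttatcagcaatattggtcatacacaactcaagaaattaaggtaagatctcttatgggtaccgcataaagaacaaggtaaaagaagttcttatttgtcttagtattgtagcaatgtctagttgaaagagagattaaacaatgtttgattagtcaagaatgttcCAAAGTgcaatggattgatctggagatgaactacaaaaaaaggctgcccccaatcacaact
The Cyp2c37 and Cyp2c50 windows were 84.3% identical. RefSeq windows were matched for 40 members, and on either strand CAAAGT was in a window of 19 of them and in 12.6% of all 32851 windows. The longer CAAAGTCCA, which contains CAAAGT, was in those of 6 members and in 0.384% of all. TATAAA was found for 18 members (12.4% of all windows), AGGTCA for 10 (14%), TTGCNNAA for 12 (9.56%) and TTCNNNGAA for 2 (7.02%). Such matches describe letters in a window and were not tied to binding in these livers.

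Libraries held 2.832 to 45.45 M counts. Of the 48 members, 36 had enough counts for a test in at least 1 comparison, 31 in every comparison and 12 in none; the untested ones were Cyp2b19, Cyp2b23, Cyp2c65, Cyp2c66, Cyp2d34, Cyp2j7, Cyp2j8, Cyp2j11, Cyp2j12, Cyp2j13, Cyp2t4 and Cyp2w1. Several libraries stood apart. The 5-month vehicle library 9 was the shallowest, with 2.832 M counts and 38206 detected genes. Xist reached 348.1 CPM in TBT library 4 at 3 weeks, where Y-linked genes summed to 7.076 CPM although its label is male. It reached 84.58 CPM in low-risk library 24 at 5 months, where Y-linked genes summed to 237.2 CPM, within the 134.9 to 241.8 CPM of its group. Uninvolved libraries 3 and 6 differed far less than other pairs of their group (chi-square per degree of freedom 3.481, group median 110.7) and were counted as 1 sample. Hepatocyte markers (Alb, Apoa1, Ttr and 3 others) were detected in full in every group, with a summed level of 54720 to 208100 CPM, while 3 kidney markers never summed above 10.54 CPM. CPM here means a gene's counts divided by the M counts of its library, after scaling for library composition. Nothing in the labels says that the mice came from separate litters, so p-values measure the spread between these samples.

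Cyp2e1, which oxidises ethanol, acetaminophen and small solvents, was the most abundant member per kilobase of exon in every group. Per kilobase it averaged 1606 ± 400 CPM (SD, n = 7) in 3-week vehicle livers, 3312 ± 887 (n = 16) in 5-month low-risk livers, 732 ± 565 (n = 10) in 5-month high-risk livers and 3691 ± 1039 (n = 6) in 10-month vehicle livers. The next places differed by group. In 10-month vehicle livers they went to Cyp2d9 (567 ± 83.0 per kilobase), Cyp2d26 (521 ± 63.6), Cyp2d10 (459 ± 40.9), Cyp2c29 (353 ± 59.8) and Cyp2j5 (337 ± 11.5). Neighbours in that order lay within an SD of each other, except that Cyp2d10 stood above Cyp2c29 by more than either SD. In tumors they went to Cyp2d26 (399 ± 78.1), Cyp2a5 (363 ± 161) and Cyp2f2 (355 ± 107), which also did not separate beyond their spread. At 3 weeks the second place was held by Cyp2c70 (412 ± 116 in vehicle livers), the enzyme that makes muricholic bile acids.

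Shares of the family were taken from summed CPM, so they are percentages of all counts after scaling for library composition. The 48 members made up 0.903% ± 0.153 in 3-week vehicle livers (SD, n = 7), 1.20% ± 0.476 in 5-month vehicle livers (n = 8) and 1.76% ± 0.324 in 10-month vehicle livers (n = 6). The 5-month low-risk livers had 1.49% ± 0.267 (n = 16) and the high-risk livers 0.587% ± 0.229 (n = 10). Without the scaling, the share ran from 0.9473% to 2.013% in these low-risk livers and from 0.5022% to 1.179% in the high-risk livers. At 10 months the share was 1.48% ± 0.136 in low-risk livers (n = 5), 0.882% ± 0.176 in uninvolved liver (n = 5) and 0.819% ± 0.227 in tumors (n = 7). The subfamilies did not move as a block. From low-risk to high-risk livers at 5 months the Cyp2c share was 0.289% ± 0.0539 against 0.0962% ± 0.0566, and the Cyp2d share was 0.284% ± 0.0518 against 0.128% ± 0.0317. The Cyp2a share had the other order, 0.0580% ± 0.0131 in low-risk and 0.0951% ± 0.0296 in high-risk livers. Within the family's per-kilobase total, Cyp2e1 took 48.5% ± 5.16 in low-risk and 24.7% ± 8.12 in high-risk livers, while Cyp2a5 took 0.975% ± 0.413 and 7.14% ± 4.13.

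**Figure D1:**
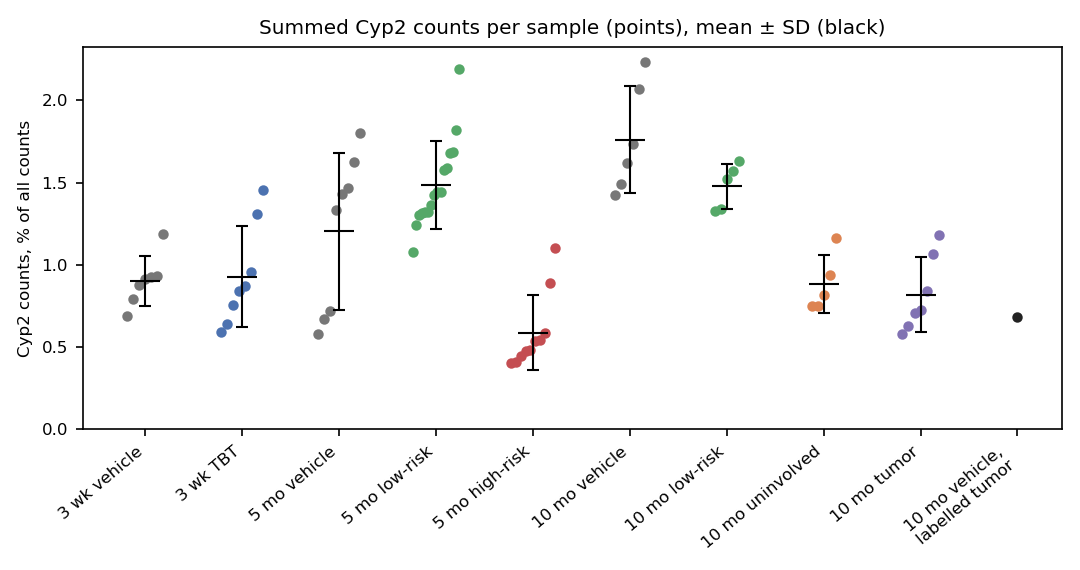
Summed counts of the 48 Cyp2 members as a percentage of all counts, after scaling for library composition (vertical axis), 1 point per sample, by group (horizontal axis). Black bars give the mean and SD. High-risk livers range from 0.401% to 1.10% and low-risk livers of the same age from 1.08% to 2.19%, so their ranges overlap slightly.

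High-risk and low-risk livers at 5 months share the TBT exposure and differ in the risk label. Among the 34 members with enough counts, high-risk livers had 6 at a higher and 19 at a lower level, at an adjusted p under 0.05 in edgeR's quasi-likelihood test with sequencing batch in the model. Over all 14773 genes tested, 20.3% were called higher and 18.5% lower. The members' median log2 fold change was -0.65, against -0.01 for all genes. With library totals in place of scaling factors the member counts were 10 higher and 16 lower, and the median of all genes then moved to 0.30.

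Cyp2e1 ranged from 705.1 to 4498 CPM (median 1132) in the 10 high-risk livers and from 4746 to 12360 CPM (median 6610) in the 16 low-risk livers. No high-risk liver reached the lowest low-risk liver; high-risk livers 1 (4498 CPM) and 22 (3036 CPM) were the highest of their group. The means were 1579 ± 1219 and 7147 ± 1914 CPM, and the fitted log2 fold change was -2.18 (SE 0.32, adjusted p 2.245e-06).

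The arachidonic acid metabolising Cyp2c genes of chromosome 19 had the largest drops. Cyp2c50 had 11.8 to 358 CPM (median 22.3) in high-risk and 211.2 to 878.7 CPM (median 468) in low-risk livers. It overlapped through high-risk liver 1, since the next value in that group was 132.9 CPM in liver 22; the log2 fold change was -3.002 (SE 0.63, adjusted p 0.0003411). Its paralogs Cyp2c54 (-3.21, SE 0.71) and Cyp2c37 (-2.94, SE 0.66) fell as well. Cyp2c37 had 197.7 CPM and Cyp2c54 131.1 CPM in high-risk liver 1, against 5.328 to 29.47 and 0.7611 to 31.89 CPM in the other 9 high-risk livers, and without liver 1 the log2 fold changes were -4.24 for Cyp2c37, -4.47 for Cyp2c54 and -3.90 for Cyp2c50. Cyp2c29 fell by 2.17 on the log2 scale (SE 0.33), from a median of 805.9 to 126.1 CPM. Cyp2c40 (-2.19), Cyp2c67 (-1.52), Cyp2c70 (-1.14) and Cyp2c68 (-0.63) fell too, and Cyp2c40 had 0.252 to 22.7 CPM in high-risk livers. Cyp2c38 (0.64, adjusted p 0.16), Cyp2c39 (0.58, adjusted p 0.0696) and Cyp2c69 (-1.47, adjusted p 0.171) did not pass the test.

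Of the Cyp2d genes, Cyp2d9 had 81.75 to 430.2 CPM (median 248.5) in high-risk and 656.8 to 1465 CPM (median 1055) in low-risk livers. The groups did not overlap, and Cyp2d9 fell by 2.08 on the log2 scale (SE 0.24, adjusted p 9.128e-08). Cyp2d40 fell by 2.16 (SE 0.29), from 40.36 to 160.6 CPM in low-risk down to 6.708 to 39.46 CPM in high-risk livers, also without overlap. Cyp2d11 (-1.07), Cyp2d10 (-1.04), Cyp2d22 (-0.67) and Cyp2d26 (-0.50) fell by less. Non-overlap below the low-risk range was seen for 4 members, Cyp2e1, Cyp2d9, Cyp2d40 and Cyp2j5, and over all genes for 0.528%; none of the members lay wholly above it, against 1.25% of all genes.

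In other subfamilies, Cyp2j5, an arachidonic acid epoxygenase, fell by 0.9965 (SE 0.14; 180.7 to 551.9 against 571.9 to 795.1 CPM), and Cyp2j6 by 0.54. Cyp2u1, which hydroxylates long-chain fatty acids, fell by 1.48, from a median of 74.7 to 23.3 CPM. Cyp2r1, the vitamin D hydroxylase, fell by 0.66 (SE 0.14), from a median of 14.95 to 10.78 CPM. Cyp2f2 (0.18, SE 0.19, adjusted p 0.461), Cyp2a12 (0.07, SE 0.15) and Cyp2s1 (0.39, SE 0.52) did not pass the test; their levels were 602.7 ± 284.9 against 541.5 ± 121 CPM, 450.9 ± 113.3 against 426.4 ± 94.1 CPM and 1.16 ± 0.618 against 0.972 ± 1.46 CPM.

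The 6 members that rose were Cyp2a4, Cyp2a5, Cyp2a22, Cyp2b9, Cyp2b10 and Cyp2c55. Cyp2a5, which hydroxylates coumarin and nicotine, had 113.6 to 698.8 CPM (median 345.8) in high-risk and 55.46 to 264.8 CPM (median 115.4) in low-risk livers, so the ranges overlapped; its log2 fold change was 1.35 (SE 0.30, adjusted p 0.0006018). Cyp2a4, a steroid hydroxylase whose promoter is nearly that of Cyp2a5, had 16.53 to 265.3 CPM (median 140.4) against 0.8539 to 115.7 CPM (median 3.01). The top low-risk value came from library 24, the library with Xist counts, and the other 15 low-risk livers had at most 7.939 CPM of Cyp2a4. The log2 fold change of Cyp2a4 was 3.99 (SE 0.78, adjusted p 0.0001629) and 5.22 without library 24. Cyp2b9 ranged from 0 to 141.4 CPM in high-risk livers and was 56.62 CPM in low-risk library 24 but at most 6.264 CPM in the other low-risk livers; its log2 fold change was 3.47 (SE 0.93), or 5.62 without that library. Cyp2c55, a fatty acid hydroxylase, had 5.466 to 26.04 CPM (median 11.9) against 1.236 to 6.524 CPM (median 2.17), a log2 fold change of 2.25 (SE 0.25). Cyp2b10 rose by 3.34 (SE 0.81; 4.14 without library 24) at low levels, 0.06917 to 10.66 CPM, where 10 of 16 low-risk libraries had none. Cyp2a22 rose by 1.97 (SE 0.37), with 3.741 to 41.26 CPM in high-risk and 1.483 to 22.47 CPM in low-risk livers.

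**Figure D2:**
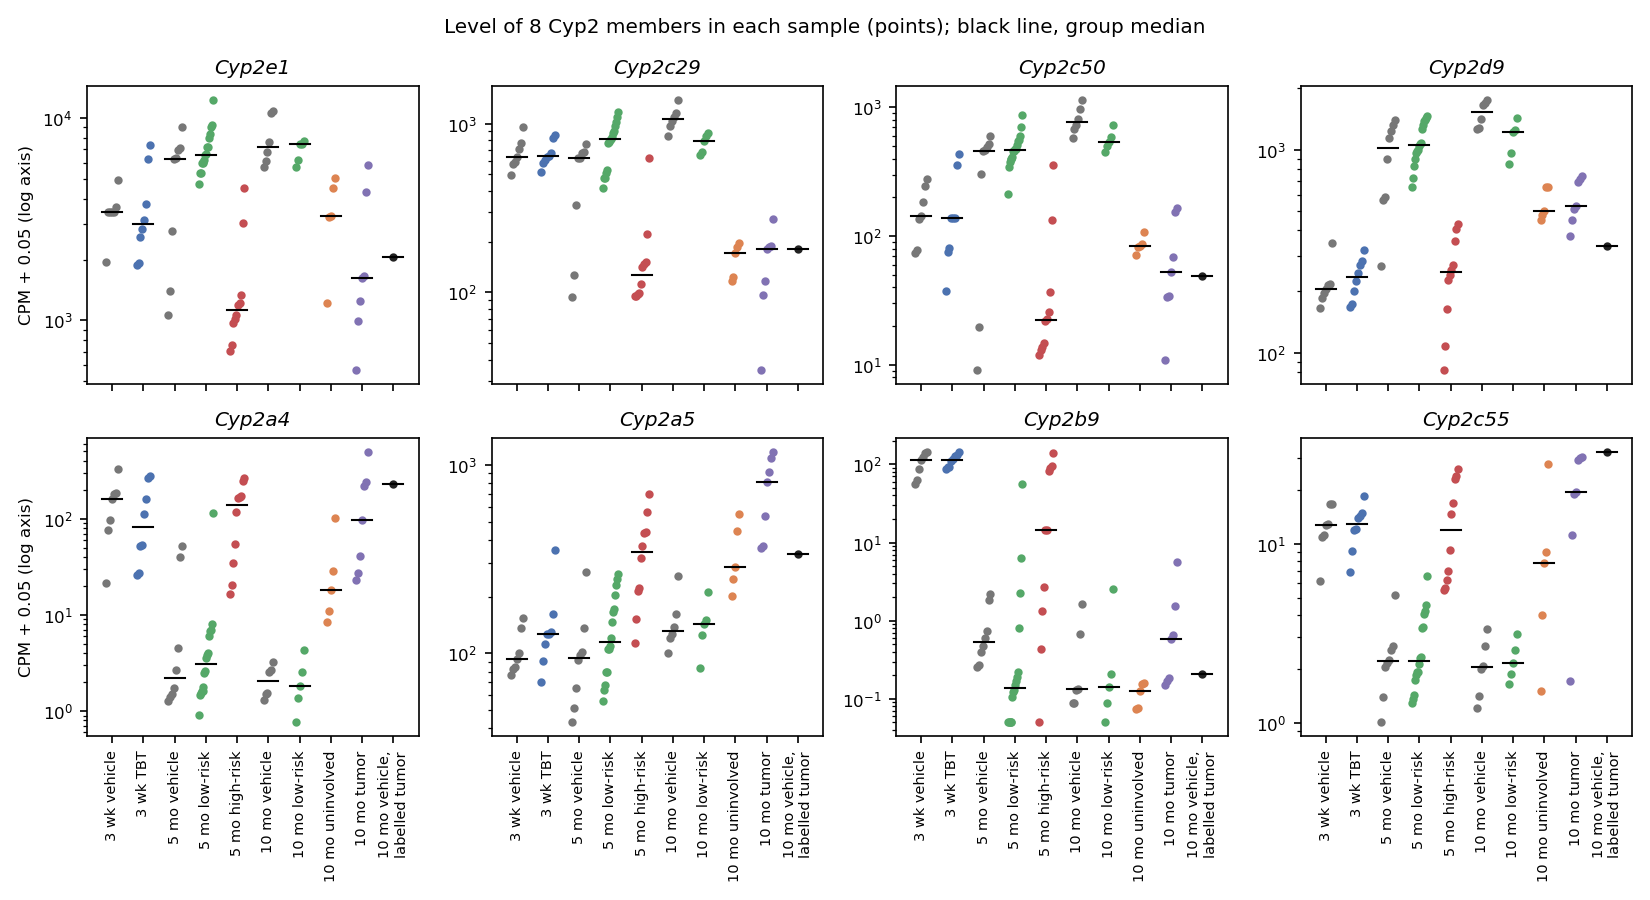
CPM plus 0.05 of 8 members (log axis) in each sample, by group, with a black line at the group median. Cyp2e1, Cyp2c29, Cyp2c50 and Cyp2d9 lie low in high-risk, uninvolved and tumor samples, Cyp2a4, Cyp2a5 and Cyp2c55 lie high there, and Cyp2b9 is high in 3-week livers and in 6 of the 10 high-risk livers (14.35 to 141.4 CPM).

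Sequencing batch was uneven between the groups: 6 of 16 low-risk and 3 of 10 high-risk livers were in batch 1 and the rest in batch 2. Within batch 1 alone 3 members were called higher and 9 lower, where 773 of all 16465 genes were called in either direction. Within batch 2 alone 5 were higher and 19 lower, where 4472 of all 13859 genes were called. Fewer calls in batch 1 were thus a feature of all genes and not of the members alone. Cyp2e1 had a log2 fold change of -3.02 in batch 1 and -1.81 in batch 2, Cyp2c50 -4.69 and -2.39, Cyp2d9 -2.06 and -2.09, and Cyp2a4 5.93 and 3.17, each called in both batches. Not called in batch 1 were Cyp2a5 (0.65, adjusted p 0.501), Cyp2a22 (0.77), Cyp2b10 (3.002), Cyp2c40 (-0.93), Cyp2c70 (-1.19), Cyp2d10 (-0.95), Cyp2d22 (-0.71), Cyp2d26 (-0.57), Cyp2r1 (-0.38), Cyp2j6 (-0.36) and also Cyp2c67, Cyp2c68 and Cyp2d11, and Cyp2b9 (3.28, adjusted p 0.0823) was not called in batch 2.

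Genes of the surrounding pathway were counted in the same fit. Of 13 redox partners and heme synthesis genes, none rose and 9 fell, among them Cyb5r3 (-0.87), Cyb5b (-0.79) and Urod (-0.72), while Por was 273.3 ± 93.5 against 266.9 ± 137 CPM (0.06, adjusted p 0.881). Of 21 receptors and factors that regulate Cyp2 genes, 1 rose and 10 fell. Nr1i3, the receptor CAR, fell by 2.19 (SE 0.41), from 36.7 ± 17.7 to 8.68 ± 9.06 CPM, and Nr1i2, the receptor PXR, was 70.8 ± 16.8 against 62.2 ± 11.6 CPM (0.19, adjusted p 0.305). Of 9 other drug-metabolising P450 genes tested, 5 rose and 1 fell: Cyp3a11 had 3217 ± 899 against 729.5 ± 371 CPM (2.17) and Cyp1a2 87.3 ± 41.5 against 379 ± 133 CPM (-2.06). Of 12 perivenous genes outside the family, none rose and 10 fell, Glul by 1.91. Of 10 periportal genes, 3 rose and 1 fell. Of 10 male-biased genes none rose and 8 fell, such as Hsd3b5 (-5.53) and Slco1a1 (-3.83), and of 6 tested female-biased genes 5 rose and none fell, such as Hao2 (2.76). The median log2 fold changes of these lists were -0.56, -0.37, 1.19, -1.17, 0.23, -1.70 and 0.85, in the order given, against -0.01 for all genes. Of all genes 20.3% were called higher and 18.5% lower.

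Cell type markers were set side by side for the same groups without a test, and the ranges of each list named here overlapped. The 5 cholangiocyte markers summed to 11.55 to 55.09 CPM (median 41.5) in high-risk and 7.55 to 229.1 CPM (median 11.02) in low-risk livers, and the 4 stellate cell markers to a median of 319 against 225.7 CPM. The 4 Kupffer cell markers had medians of 124.3 and 182.5 CPM, the 4 endothelial markers 194.4 and 312.5 CPM, and the 6 hepatocyte markers 98930 and 113000 CPM. No marker of these lists was at 0 in either group. Their part in the Cyp2 differences was not tested.

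Against 5-month vehicle livers, which share these high-risk samples with the comparison above, high-risk livers had 3 of 34 tested members at a higher and 15 at a lower level, where 8.47% of all genes were called higher and 7.38% lower. The members' median was -0.55, against -0.01 for all genes. With library totals in place of scaling factors the counts were 5 higher and 13 lower, and the median of all genes moved to 0.36. The largest falls were Cyp2c54 (-2.85, SE 0.84), Cyp2c50 (-2.70, SE 0.75) and Cyp2c37 (-2.62, SE 0.79), all larger without high-risk liver 1 (-4.00, -3.55 and -3.81), then Cyp2d40 (-1.90), Cyp2d9 (-1.72), Cyp2e1 (-1.72, SE 0.38, adjusted p 0.002774) and Cyp2c29 (-1.68). Cyp2c54, Cyp2c50 and Cyp2c37 were not called with only the 2 groups in the fit (adjusted p 0.08416, 0.06065 and 0.08115). Nor were they with no filter on low counts (0.07248, 0.05607 and 0.08691). With only the 2 groups, 4 members were higher and 10 lower, where 1338 of all 14087 genes were called. With no filter, 2 were higher and 10 lower, where 1211 of all 48210 genes were called. Cyp2a5 (1.70, SE 0.41), Cyp2a22 (1.89, SE 0.54) and Cyp2c55 (1.99, SE 0.36) rose. Cyp2c55 was the 1 member whose groups did not overlap, with 0.956 to 5.098 CPM in vehicle livers, and 0.264% of all genes were above in that way; no member was wholly below, against 0.0271%. Cyp2a4 (2.06, adjusted p 0.155), Cyp2b9 (3.23, adjusted p 0.14) and Cyp2b10 (2.23, adjusted p 0.175) did not pass the test here.

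The vehicle livers of 5 months were spread widely for these genes. Vehicle livers 4 and 6 had 1069 and 1393 CPM of Cyp2e1, whereas livers 1, 2, 3, 5 and 8 had 6256 to 8997 CPM and the shallow library 9 had 2782 CPM. Cyp2c50 was 19.58 CPM in liver 4 and 8.997 CPM in liver 6, against 302.3 to 597.2 CPM in the other 6. Cyp2a4 was 51.61 and 40 CPM in livers 4 and 6 and 1.234 to 4.429 CPM in the rest. Livers 4 and 6 thus lay within or below the high-risk range of Cyp2e1 and Cyp2c50 and within that of Cyp2a4, library 9 lay within that of Cyp2e1, and liver 3 lay within that of Cyp2c50. Batch 2 holds 1 vehicle liver, so there is no test within it, and within batch 1 alone (7 vehicle and 3 high-risk livers) none of the members and none of all 16465 genes was called. The batch 1 values were -4.01 for Cyp2c50, -3.94 for Cyp2c37, -2.28 for Cyp2e1 and -1.69 for Cyp2d9. Leaving out 1 vehicle liver at a time gave 2 to 5 members higher and 10 to 18 lower. Over all genes 1251 were higher and 1090 lower with every library, and the number called in either direction was 1373 without vehicle liver 8 and 4264 without library 9. Without vehicle liver 8, the batch 2 liver, Cyp2c37 (-2.65, adjusted p 0.0634), Cyp2c54 (-2.80, adjusted p 0.0657), Cyp2a22, Cyp2d22 and Cyp2j6 were not called.

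Low-risk and vehicle livers of 5 months did not separate: edgeR called none of 34 members and 0% of all 14773 genes in either direction, and 1 member, Cyp2d12 (-1.57, SE 0.63), had an unadjusted p under 0.05. Over all genes 934 had such a p, and DESeq2 called 52 genes and none of the members. Cyp2e1 was 7147 ± 1914 CPM in low-risk (n = 16) and 5116 ± 2951 CPM in vehicle livers (n = 8).

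At 10 months the tissue outside tumors was compared with low-risk livers, both after TBT. Of 32 members tested, 5 were higher and 17 lower in uninvolved liver, where 27.7% of all 16338 genes were called higher and 24.7% lower. The members' median was -0.59, against 0.05 for all genes, a median that library totals in place of scaling factors moved to 0.30. Cyp2e1 had 1217, 3237, 3290, 4497 and 5033 CPM in the 5 uninvolved samples and 5743, 6208, 7434, 7467 and 7695 CPM in the 5 low-risk livers, so every uninvolved sample was below every low-risk liver. The log2 fold change of Cyp2e1 was -1.01 (SE 0.28, adjusted p 0.005839).

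Cyp2c50 had 71.42, 82.01, 83.78, 86.98 and 107.6 CPM in uninvolved liver and 450.9, 497.6, 535.1, 590.3 and 728.4 CPM in low-risk livers. The sets were far apart and tight, and the log2 fold change was -2.71 (SE 0.18, adjusted p 1.524e-08). Cyp2c37 (-3.16, SE 0.18), Cyp2c54 (-2.30, SE 0.30), Cyp2c29 (-2.29, SE 0.17) and Cyp2d40 (-2.15, SE 0.13) fell likewise without overlap. Cyp2d9 (-1.08) and Cyp2r1 (-1.35) fell too, and Cyp2j5 fell by 0.65. Cyp2c69 had the lowest fitted value (-3.51, SE 0.65), but its 5 uninvolved samples held 32 counts in all and the low-risk livers 179. Of the members tested, 12 lay wholly below the low-risk range and 2 wholly above it, where 15.1% and 14.8% of all genes did so.

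Cyp2a4 had 8.483, 10.98, 18.04, 28.69 and 102.6 CPM in uninvolved liver and 0.7123, 1.315, 1.785, 2.488 and 4.262 CPM in low-risk livers. The groups did not overlap, and the sample joined from libraries 3 and 6 held the 102.6 CPM; the log2 fold change was 4.02 (SE 0.69, adjusted p 0.0002621). Cyp2d12, a scarce Cyp2d gene, rose by 2.66 (SE 0.30), from 0.3499 to 0.9611 CPM up to 2.427 to 6.966 CPM. Cyp2a5 rose by 1.27 (SE 0.30), with 200.6, 248.6, 287, 447.4 and 548.2 CPM against 83.22, 125.1, 143.5, 150.2 and 211.6 CPM, which overlap only at their edges. Cyp2c55 (2.17, SE 0.57) and Cyp2a12 (0.29, SE 0.11, adjusted p 0.04178) also rose. Cyp2f2 (711.9 ± 207.8 against 578.9 ± 63.7 CPM, adjusted p 0.133) and Cyp2c38 (34.2 ± 4.12 against 38.5 ± 16.5 CPM, adjusted p 0.503) did not pass the test. Without the sample from libraries 3 and 6, Cyp2a4 was at 2.99, Cyp2c55 at 1.31 and Cyp2c69 at -4.33, and Cyp2a4 and Cyp2c55 had adjusted p-values of 0.0001053 and 0.01208. Cyp2a12, Cyp2c70 and Cyp2u1 were each not called after the loss of several single samples, for instance Cyp2a12 without low-risk liver 2 (0.24, adjusted p 0.115), Cyp2c70 without uninvolved sample 1 (-0.59, adjusted p 0.104) and Cyp2u1 without it (-0.52, adjusted p 0.0717).

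Against 10-month vehicle livers, with the same uninvolved samples, 5 members were higher and 20 lower of 32 tested, where 31.2% of all genes were called higher and 26.5% lower. The members' median was -0.72, against 0.06 for all genes. With library totals in place of scaling factors the counts were 8 and 16, the median of all genes was 0.38, and Cyp2j6, at -0.32 (adjusted p 0.02353) before, was at 0.001742. Cyp2c29 had 848.7 to 1387 CPM (median 1068) in the 6 vehicle livers and at most 196.7 CPM in uninvolved liver, a log2 fold change of -2.78 (SE 0.17). Cyp2c37 was at -3.63, Cyp2c50 at -3.26, Cyp2c54 at -3.06, Cyp2d40 at -2.33 and Cyp2d9 at -1.48. Cyp2a4 (4.01), Cyp2c55 (2.27), Cyp2d12 (2.22), Cyp2a5 (1.19) and Cyp2s1 (1.06, at 0.863 ± 0.309 against 0.414 ± 0.257 CPM) were higher. The call of the scarce Cyp2s1 was lost without uninvolved sample 1 (0.88, adjusted p 0.104) or 12 (0.99, adjusted p 0.0636). It was also lost with no filter on low counts (1.03, adjusted p 0.05345). Below the vehicle range without overlap were 16 members, and 15% of all genes; 2 lay above it, and 15.7%. Without the sample from libraries 3 and 6, Cyp2a4 was at 2.98, Cyp2c55 at 1.41 and Cyp2c69 at -5.18 (-4.35 with it), all still called.

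In the pathway lists, 7 of 13 redox and heme synthesis genes fell and 1 rose in uninvolved against low-risk liver, and the one that rose was Por (0.68, adjusted p 0.02332). Nr1i3 fell by 1.21 (SE 0.36), with 19.9 ± 10.3 against 45.6 ± 9.79 CPM, within a list of 21 regulators of which 5 rose and 9 fell. Nr1i2 was at 0.24 (adjusted p 0.0689). Of 8 other P450 genes tested, 4 rose and 2 fell, including Cyp3a11 (1.92) and Cyp1a2 (-1.28). Of 12 perivenous genes 7 fell and none rose (Glul -0.96), of 10 periportal genes 4 rose and 1 fell, of 10 male-biased genes 1 rose and 5 fell, and of 6 female-biased genes 1 rose. The medians were -0.35, -0.29, 0.17, -0.83, 0.39, -0.57 and 0.26 in the order given, against 0.05 for all genes, of which 27.7% were called higher and 24.7% lower. Cholangiocyte markers summed to 23.14 to 39.32 CPM in uninvolved and 7.27 to 10.52 CPM in low-risk livers, and Kupffer cell markers to 72.05 to 136.3 against 190.5 to 232 CPM. Their part in the Cyp2 values was not tested.

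Low-risk and vehicle livers of 10 months did not differ by the test: none of 32 members and 0% of all 16338 genes were called by edgeR. Unadjusted p was under 0.05 for 7 members, Cyp2c54 (-0.75), Cyp2c50 (-0.55), Cyp2c29 (-0.49), Cyp2c37 (-0.47), Cyp2d9 (-0.40), Cyp2c40 (-0.36) and Cyp2a12 (-0.24), all with an adjusted p of 0.9999. Cyp2c50 was 560.5 ± 106.9 CPM in low-risk (n = 5) and 819.8 ± 208.6 CPM in vehicle livers (n = 6), and its ranges overlapped. Over all genes 688 had an unadjusted p under 0.05, and DESeq2 called 1 gene and none of the members.

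Tumors were compared with uninvolved liver, which share 6 mouse numbers in the labels. Of 34 members tested, 3 were higher and 2 lower in tumors, where 7.55% of all 16362 genes were called higher and 10.5% lower, and the medians were 0.06 for the members and -0.01 for all genes. Cyp2a5 had 361.2 to 1175 CPM (median 814.9) in the 7 tumors against 200.6 to 548.2 CPM in uninvolved liver, overlapping, with a log2 fold change of 1.11 (SE 0.34, adjusted p 0.03671). With mouse number as a replicate block and libraries 3 and 6 taken separately, 3 members were higher and 1 lower, and Cyp2a5 was at 0.87 (adjusted p 0.128) and not called. With the block and without mice 3 and 6, 3 were higher and 2 lower: Cyp2a5 (1.195, adjusted p 0.0629) was again not called, and Cyp2c55 (1.84, adjusted p 0.0208) and Cyp2c38 (-0.65, adjusted p 0.0224) were. Cyp2r1 was 8.024 to 14.23 CPM (median 12.95) in tumors and 6.515, 7.362, 7.629, 8.498 and 10.01 CPM in uninvolved liver, a rise of 0.60 (SE 0.14, adjusted p 0.01457). Cyp2c69 rose by 4.28 (SE 0.95) without overlap, from 0 to 0.2576 CPM up to 0.6139 to 8.068 CPM, on 32 counts in all 5 uninvolved samples, and by 5.09 without the uninvolved sample from libraries 3 and 6. Above the uninvolved range without overlap was that 1 member, and 3.81% of all genes; no member was wholly below, against 3.25%.

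Cyp2c23, another arachidonic acid epoxygenase, fell by 0.70 (SE 0.19), with 99.59 to 254.7 CPM (median 197.5) in tumors against 242.3, 269.3, 320.2, 370.7 and 382.3 CPM, which overlap at the edge; with mouse as a block and without mice 3 and 6 it was at -0.46 (adjusted p 0.0997) and not called. Cyp2j9 fell by 1.14 (SE 0.33), with 3.207 to 7.255 CPM against 4.464, 5.841, 9.881, 16.1 and 18.57 CPM, and with mouse as a block was at -0.78 (adjusted p 0.0684), but was called with the block and without mice 3 and 6. Cyp2c37 was 22.5 ± 29.6 CPM in tumors and 21.5 ± 3.43 CPM in uninvolved liver (0.06, SE 0.69), and Cyp2e1 was 2316 ± 1965 against 3455 ± 1471 CPM (-0.59, SE 0.53, adjusted p 0.449); neither passed the test. Tumors 7 and 6 had 5834 and 4294 CPM of Cyp2e1 and the other 5 tumors 566.5 to 1657 CPM. Cyp2a4 was 22.88 to 497.4 CPM (median 97.2) against 8.483 to 102.6 CPM (2.28, SE 0.88, adjusted p 0.0848) and did not pass the test.

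Around them, 1 of 13 redox and heme genes rose in tumors (Pgrmc1, 0.53), 2 of 21 regulators rose and 2 fell, and 3 of 10 other P450 genes rose, such as Cyp3a16 (5.10, at 1.19 ± 1.27 against 0.0247 ± 0.0425 CPM). None of the 12 perivenous, 10 periportal, 10 male-biased and 6 female-biased genes tested was called. Over all genes tested 7.55% were called higher and 10.5% lower. The redox and heme list had 7.69% higher and the regulators 9.52% in each direction, near those shares. Cholangiocyte markers were similar in range, 21.86 to 30.88 CPM in tumors and 23.14 to 39.32 CPM in uninvolved liver. The tumor calls of Cyp2a5 and Cyp2j9 were lost without uninvolved sample 1, 5 or 7 (Cyp2a5 at 0.97 to 1.06, Cyp2j9 at -1.16 to -0.87), and that of Cyp2c23 without sample 5 (-0.69, adjusted p 0.0532).

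Against vehicle livers of 10 months, 7 members were higher and 20 lower in tumors of 35 tested, where 24.8% of all 15293 genes were called higher and 21% lower, and the members' median was -0.48. With library totals the counts were 8 and 14, with a median of all genes of 0.29. Cyp2a5 had 361.2 to 1175 CPM against 100.2 to 258.3 CPM in vehicle livers, without overlap, a rise of 2.33 (SE 0.32, adjusted p 7.92e-05). Cyp2a4 rose by 6.30 (SE 0.85) from 1.243 to 3.158 CPM, Cyp2d12 by 3.35 (SE 0.60) and Cyp2c55 by 3.29 (SE 0.53), from 1.157 to 3.302 CPM up to 1.664 to 30.43 CPM. Cyp2b10 was 0.3414 to 30.17 CPM in tumors; the 6 vehicle libraries together held 6 counts of it, at most 2 in any library, so the size of its fitted rise (7.31, SE 1.42) rests on almost no counts. The falls included Cyp2c37 (-3.54), Cyp2c50 (-3.45), Cyp2c54 (-3.12), Cyp2c29 (-2.80), Cyp2d40 (-1.92), Cyp2e1 (-1.76) and Cyp2d9 (-1.38). Without overlap, 4 members lay above the vehicle range (10.8% of all genes) and 10 below it (9.55%).

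Whether the difference between the risk classes changed between ages was tested as an interaction, uninvolved against low-risk at 10 months minus high-risk against low-risk at 5 months. None of 35 members was called, where 0.180% of all 16084 genes were called higher and 0.267% lower, and 10 members had an unadjusted p under 0.05. The largest of these were Cyp2b9 (-6.51, SE 2.35, adjusted p 0.238), Cyp2d12 (2.19, SE 0.94), Cyp2a22 (-1.78, SE 0.67), Cyp2e1 (1.16, SE 0.45, adjusted p 0.274) and Cyp2d9 (1.001, SE 0.34, adjusted p 0.196). Side by side, Cyp2b9 was 0 to 141.4 CPM in 5-month high-risk livers and 0.02453 to 0.1109 CPM in 10-month uninvolved liver. Over all genes 1945 had an unadjusted p under 0.05, and DESeq2 called 231 genes and none of the members.

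**Figure D3:**
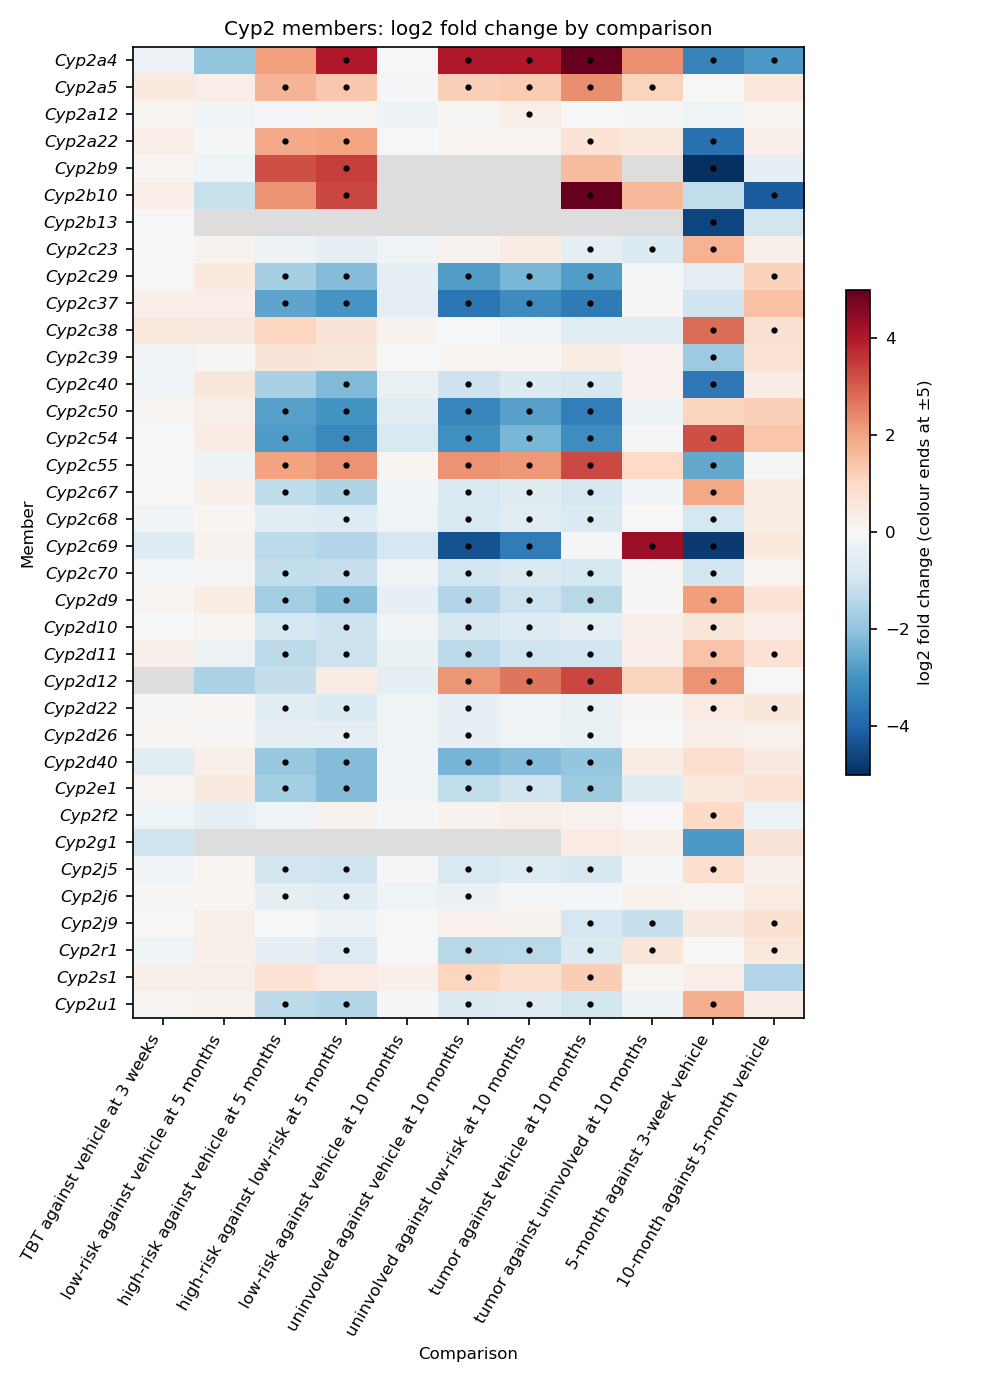
Log2 fold change of the 36 tested members (rows) in 11 comparisons (columns), coloured from -5 to 5, with black dots where edgeR's adjusted p is under 0.05 and grey where a member was not tested. The columns of high-risk against low-risk and of uninvolved or tumor samples against vehicle carry blue for Cyp2c29, Cyp2c37, Cyp2c50, Cyp2c54, Cyp2d9, Cyp2d40 and Cyp2e1 and red for Cyp2a4, Cyp2a5 and Cyp2c55, and the columns of TBT at 3 weeks and of low-risk against vehicle livers carry no dot.

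At 3 weeks, at the end of exposure, TBT and vehicle livers were compared directly. EdgeR called none of 35 members and 0% of all 14050 genes, the members' median was 0.02 and that of all genes 0.01, no member's groups were apart (0.0214% of all genes were lower without overlap), and 1 member had an unadjusted p under 0.05, Cyp2g1 (-0.98, SE 0.39), an olfactory member with 0.551 ± 0.215 against 1.10 ± 0.738 CPM. Cyp2e1 was 3722 ± 2036 CPM after TBT (n = 8) and 3465 ± 863 CPM in vehicle livers (n = 7). Cyp2b9 was 113 ± 21.3 against 104 ± 35.0 CPM, Cyp2a5 147 ± 87.4 against 104 ± 29.6 CPM and Cyp2c29 665 ± 114 against 674 ± 149 CPM. Over all genes 474 had an unadjusted p under 0.05, and DESeq2 called 2 genes and none of the members.

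Vehicle livers alone, restricted to batch 1, gave the course with age. From 3 weeks to 5 months 12 members rose and 10 fell of 36 tested, where 11.9% of all 14962 genes were called higher and 12.3% lower. The median of all genes was 0.02, and -0.15 with library totals in place of scaling factors. Cyp2b9 had 56.53 to 141.8 CPM (median 113.6) at 3 weeks and 0.2057 to 1.767 CPM (median 0.431) at 5 months, far apart, a fall of 7.48 on the log2 scale (SE 0.57, adjusted p 1.101e-08; -8.17 without 5-month liver 6). Its near copy Cyp2b13 fell by 4.58 (SE 0.62), from 2.421 to 8.693 CPM down to 0 to 1.02 CPM. Cyp2c69 (-4.79), Cyp2a22 (-3.71), Cyp2c40 (-3.56, from 51.87 to 105.6 down to 2.537 to 10.53 CPM), Cyp2a4 (-3.33, or -4.13 without 5-month liver 4), Cyp2c55 (-2.56), Cyp2c39 (-1.82), Cyp2c70 (-0.91) and Cyp2c68 (-0.88) fell as well.

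Among the members that rose with age, Cyp2c38 went from 1.606 to 5.496 CPM (median 2.58) to 11.36 to 29.57 CPM (median 21.3) without overlap, a rise of 2.78 (SE 0.25, adjusted p 5.253e-08). Cyp2c54 rose by 3.21 (SE 0.69), Cyp2d9 by 2.08 (SE 0.27), from 166.7 to 344.6 CPM up to 267 to 1392 CPM, and Cyp2c67 by 1.93. Cyp2u1 (1.83), Cyp2c23 (1.73), Cyp2d11 (1.43), Cyp2f2 (1.01), Cyp2j5 (0.79), Cyp2d10 (0.59), Cyp2d22 (0.40) and Cyp2d12 (2.26) rose too. The calls of Cyp2d10 and Cyp2d22 were lost with library totals (0.42, adjusted p 0.0685, and 0.23, adjusted p 0.193) and with no filter on low counts, that of Cyp2d10 also without 5-month liver 2 and that of Cyp2d22 without liver 1, 2 or 5. Cyp2e1 (0.51, SE 0.35, adjusted p 0.331) and Cyp2c29 (-0.48, adjusted p 0.353) did not pass the test. Without overlap, 6 members fell (4.06% of all genes) and 3 rose (1.70%). Of 10 male-biased genes outside the family 9 rose and none fell, such as Mup20 (5.04), and of 8 female-biased genes tested 6 fell and none rose. Over all genes 11.9% were called higher and 12.3% lower. Hepatocyte markers summed to a median of 177000 CPM at 3 weeks and 112400 CPM at 5 months, and erythrocyte markers to 593.8 and 212.7 CPM. The 5-month medians are of all 8 vehicle livers, with the batch 2 liver included. The part of these markers was not tested.

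**Figure D4:**
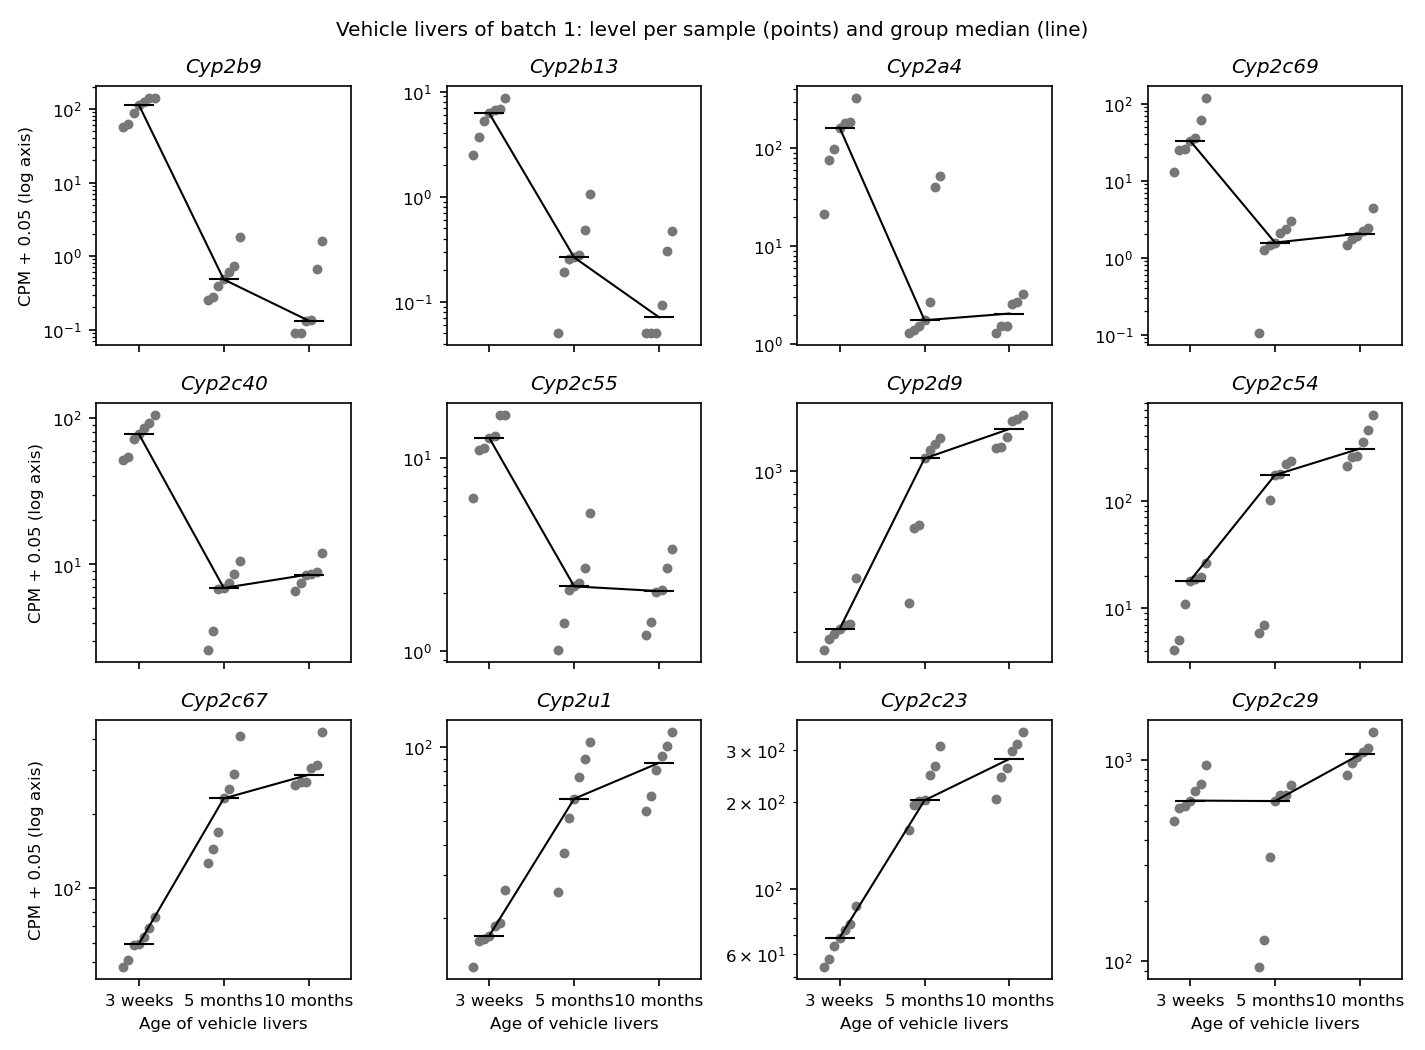
CPM plus 0.05 (log axis) of 12 members in the vehicle livers of batch 1 at 3 weeks (7), 5 months (7) and 10 months (6), 1 point per sample, with a line through the group medians. Cyp2b9, Cyp2b13, Cyp2c69, Cyp2c40 and Cyp2c55 are lower at 5 months, Cyp2d9, Cyp2c54, Cyp2c67 and Cyp2c23 are higher, and at 5 months 2 livers hold the high points of Cyp2a4 (51.61 and 40 CPM).

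From 5 to 10 months 6 members rose and 2 fell of 36, where 6.68% of all genes were called higher and 7.41% lower. Cyp2c29 had 93.4 to 755.1 CPM (median 626.8) at 5 months and 848.7 to 1387 CPM (median 1068) at 10 months, without overlap, a rise of 1.13 (SE 0.36, adjusted p 0.0427). Cyp2j9 (0.78), Cyp2c38 (0.77), Cyp2d11 (0.72), Cyp2d22 (0.58) and Cyp2r1 (0.54) rose. Cyp2c37 also did not overlap between the ages but was not called (1.45, adjusted p 0.128); such a gap above the 5-month range was found for 2 members and for 3.94% of all genes, and a gap below it for none and for 1.12%. Cyp2b10 (-4.18, SE 1.02) and Cyp2a4 (-2.86, SE 0.93, adjusted p 0.04653) fell, Cyp2b10 to 6 counts in all at 10 months and Cyp2a4 from 1.234 to 51.61 CPM down to 1.243 to 3.158 CPM. Without 5-month liver 4 Cyp2b10 was at -2.61 (adjusted p 0.0788) and Cyp2a4 at -2.05 (adjusted p 0.134), without liver 6 Cyp2a4 was at -2.37 (adjusted p 0.104), and the call of Cyp2c29 was lost without liver 3, 4 or 6 (0.94 to 1.05). The calls of Cyp2j9 and Cyp2c38 were lost in some of these fits too, and the number of members called higher then ran from 2 (without liver 3) to 9 (without liver 5). With library totals in place of scaling factors 8 members were higher and 1 lower. Nr1i3 rose over the same interval by 2.14 (SE 0.43), from 16.1 ± 10.8 to 72.9 ± 37.2 CPM, and of 21 regulators 3 rose and none fell.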

How the data were processed

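The deposited table holds whole-number counts of reads per gene for the 75 libraries. Per the labels, RNA was column-purified with DNase treatment and made into stranded total RNA libraries. Per the submitters' processing notes, the authors used Trim Galore, HISAT2 and featureCounts with mm10, and the deposited name of the table also states ComBat-seq, a batch adjustment of counts; versions, annotation, strand setting and the groups given to ComBat-seq are not given in the sources used here. Adjusted counts are no longer raw reads, which can change the spread between batches.

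Groups came from the labels. Counts were fitted over all genes with the robust quasi-likelihood test of edgeR 4.0.16 in R 4.3.3, after TMM scaling and the filterByExpr filter, with Benjamini-Hochberg adjustment and a threshold of 0.05; 5-month fits had sequencing batch as a term. DESeq2 1.42.0, other filters, scalings, fits and left-out libraries were alternatives. Members described fully were up to 5 per direction with a mean of at least 5 CPM, plus a set chosen for known roles; list genes named were the 3 with the smallest adjusted p, with Por, Nr1i2, Nr1i3, Glul and Cyp1a2. Values of some list genes are not reported here. Members and lists were chosen with earlier results of these data known. Gene positions are from GENCODE M21, promoters from RefSeq. The code was tested on simulated data.

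Same-numbered tumor and uninvolved libraries carry the same mouse number; of 6 such pairs, in which libraries 3 and 6 stand as separate mice although they were counted as 1 sample in the fits, 4 had a correlation of deviations over 0.1 (range -0.397 to 0.714).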

Additional observations from a re-analysis of the deposited data

Results flagged for a closer look

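Within groups of 4 to 10 samples, 28 of 161 groups of values tested had a single sample far from the rest. Chance flags about 1 in 20 groups where values are normally distributed, whereas these were untransformed levels. The chance rate for such levels was not measured, and values of a sample are not independent. High-risk liver 1 at 5 months was far above the other 9 livers for Cyp2c37 (197.7 against 5.328 to 29.47 CPM), Cyp2c50 (358 against 11.8 to 132.9), Cyp2c54 (131.1 against 0.7611 to 31.89) and Cyp2c29 (622.1 against 95.07 to 220.8). At 3 weeks TBT liver 6 was highest for Cyp2a5 (351.8 CPM), Cyp2c37 (650.3) and Cyp2a22 (156.9), TBT liver 8 for Cyp2c54 (67.09) and Cyp2c23 (100.5), and vehicle liver 2 for Cyp2d9 (344.6). In 5-month vehicle livers the highest samples were liver 4 for Cyp2a5 (269.6 CPM), liver 8 for Cyp2c40 (30.71) and the shallow library 9 for Cyp2j9 (10.88), and library 9 was lowest for Cyp2a12 (143.4 against 405.4 to 603.4).

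At 10 months the uninvolved sample from libraries 3 and 6 was highest for Cyp2a4 (102.6 CPM) and Cyp2c55 (27.78), sample 7 for Cyp2c54 (74.71), and sample 12 for Cyp2u1 (84.16) and Cyp2c67 (218.5). Tumor 1 was highest for Cyp2a22 (11.23 CPM), Cyp2b10 (30.17) and Cyp2d12 (28.37), and tumor 6 for Cyp2c37 (84.87). Tumor 7 was highest for Cyp2d22 (254.2) and lowest for Cyp2r1 (8.024), and tumor 11 was lowest for Cyp2c23 (99.59). Low-risk liver 10 was lowest for Cyp2c23 (156.8), and vehicle liver 5 was highest for Cyp2c67 (429.5).

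The vehicle library that carries a tumor label, which entered no comparison, was above all 6 vehicle livers of its age for Cyp2a4 (231 against 1.243 to 3.158 CPM), Cyp2c55 (32.53 against 1.157 to 3.302), Cyp2a5 (335.6 against 100.2 to 258.3), Cyp2f2 (828.6 against 530.8 to 702.6) and Cyp2c38 (48.24 against 26.3 to 43.77). It is a single library, so the difference was not tested.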

How the results depend on the processing

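Leaving out 1 library at a time kept the count of members within 1.5 times in 215 of 226 refitted counts, and the other alternatives did so in 180 of 200. Both totals include counts that were 0 before and after. With single samples left out, these came from low-risk against vehicle at 5 (18 fits) and 10 months (10) and the age interaction (10). Some fits also left out a sample of a group outside the comparison. The totals therefore overstate how steady the counts of called members were. The alternatives by library totals, by single 5-month libraries and without low-risk library 24 were chosen after seeing the data. With library totals in place of scaling factors the members called higher were 10 (high-risk against low-risk), 5 (high-risk against vehicle) and 8 (uninvolved against vehicle), 1 was lower from 5 to 10 months, and Cyp2j6 in uninvolved against vehicle liver was at 0.001742. Within batch 1, high-risk against low-risk gave 3 higher and 9 lower, where 773 of all 16465 genes were called. High-risk against vehicle gave 0 and 0 there, and none of all genes was called. Without a batch term high-risk against vehicle gave 6 higher, and without low-risk library 24 it gave 5. Leaving out single high-risk or vehicle livers, high-risk against vehicle gave 2 to 5 higher and 10 to 18 lower. Tumor against uninvolved gave 2 to 5 higher and 0 to 2 lower when single uninvolved samples were left out. Without single 5-month vehicle livers, 10 against 5 months gave 2 to 9 higher and 0 to 3 lower. Tumors, 10-month vehicle livers, 3-week livers and 5-month low-risk livers were not left out in turn, so these ranges do not cover them. Tumor against uninvolved gave 1 lower with no filter or with libraries 3 and 6 separate, and 6 higher with all 10-month groups in the fit. Counting the vehicle library with the tumor label as vehicle gave 2 higher in uninvolved against vehicle (Cyp2a4 at -0.05609) and 1 higher and 0 lower from 5 to 10 months (Cyp2a4 at 1.273). With the replicate number as a block, high-risk against vehicle (3 shared numbers) gave 0 lower, with Cyp2j6 at 0.2206 and Cyp2d10 at 0.08931, and 2 higher, Cyp2b9 (4.41, adjusted p 1.671e-06) and Cyp2a4 (2.76, adjusted p 4.622e-05), where 68 of all 14087 genes were called; uninvolved against vehicle gave 3 higher, tumor against vehicle 13 lower and tumor against uninvolved 1 lower. Outside tumor against uninvolved, the samples share only a number. The number of all genes called also moved: tumor against uninvolved had 1580, 1590 and 1611 without uninvolved sample 1, 5 or 7 (1235 higher and 1726 lower with all), and without vehicle library 9, 5 months against 3 weeks had 5790 (1774 and 1842) and 10 against 5 months 3448 (999 and 1108). Depth limits members with few counts, such as Cyp2b10, Cyp2b9 and Cyp2c69. Apart from settings that use fewer samples or genes, the cause was not tested.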
